A study of Drosophila melanogaster with 2 samples.

Results

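The genes described here are 10 mitotic kinase and checkpoint genes of Drosophila melanogaster: aurA, aurB and polo (mitotic kinases), BubR1, Bub3, Bub1, Mps1 and mad2 (spindle checkpoint), and grp and lok (DNA checkpoint kinases). They were named as a list, not picked by a threshold on the data, and are 10 of 13945 protein-coding genes on the arms. Chromatin immunoprecipitation followed by sequencing (ChIP-seq) had been done on transgenic whole embryos, 0 to 4 h old, in which CG2129 was expressed as a CG2129-eGFP fusion protein. The antibody was directed against GFP per the labels' description, while their antibody entry names CG2129, and a peak is read here as DNA recovered with the tagged protein. There were 2 biological replicates of this 1 group and no second genotype, treatment or age, and a control named in the labels was not analysed here. Whole embryos mix all cell types, so binding in some nuclei and weaker binding in all of them cannot be told apart.

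Mitotic kinases phosphorylate centrosome, spindle and kinetochore proteins to drive entry into and passage through mitosis. The spindle checkpoint holds back the anaphase-promoting complex until kinetochores are attached to microtubules, and the DNA checkpoint kinases delay division when replication is unfinished or DNA is damaged. The early fly embryo divides by rapid, synchronous nuclear cycles that run on maternally supplied proteins and lengthen as zygotic transcription begins. CG2129 itself encodes a zinc finger protein.

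A gene was called bound when a peak summit lay within 500 bp of one of its transcription start sites (TSSs). By that rule 6 of the 10 genes were bound in the thresholded list of the pooled replicates: aurA, polo, BubR1, Bub3, Bub1 and grp. The remaining 4, which are aurB, Mps1, mad2 and lok, were not. Over all protein-coding genes 17.3% were bound in that list. In the conservative pooled list the same 6 were bound, against 16.8% of all genes. Replicate 1's own list held the same 6 (14.9% of all genes), and replicate 2's own list held 5 of them (12.2% of all genes), with Bub1 missing. The list of 10 was drawn up with earlier results of these data known, so the counts are descriptions of these genes and no test was made on them.

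The DNA under the summits is shown first for the genes whose sequence was read, since the description of motifs further on refers back to it. All sequences are dm6 (Release 6), written 5′ to 3′ on the gene's own strand. In aurA, polo and Bub1 the capitals mark CGATA, which reads TATCG on the other strand. In Bub3, grp and mad2 they mark TATCGAT or the palindrome TATCGATA that contains it, the DNA replication-related element (DRE) of fly promoters, with ATCGATA being TATCGAT on the other strand. The aurA stretch (chr3R:11962963-11963123, plus strand) runs from 50 bp before the summit to the base before the TSS. The polo stretch (chr3L:20309960-20309989, plus strand) lies around the summit in the 5′ UTR of its longer transcript. The Bub1 stretch (chr2L:5278587-5278687, plus strand) is centred on the summit, the Bub3 stretch (chr3R:29675422-29675521, minus strand) runs from 50 bp before the summit to the base before the TSS, and so does that of grp (chr2L:16679960-16680053, plus strand). The mad2 stretch (chr3L:5813095-5813195, minus strand), from a gene that was not bound, is centred on its DRE.
aurA: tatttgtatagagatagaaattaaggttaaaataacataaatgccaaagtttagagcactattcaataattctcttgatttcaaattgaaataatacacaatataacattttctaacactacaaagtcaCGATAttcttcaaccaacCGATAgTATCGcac
polo: caacactcaacaaaataccgCGATAcatac
Bub1: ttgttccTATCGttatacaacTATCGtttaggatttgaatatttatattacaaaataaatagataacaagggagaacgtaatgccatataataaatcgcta
Bub3: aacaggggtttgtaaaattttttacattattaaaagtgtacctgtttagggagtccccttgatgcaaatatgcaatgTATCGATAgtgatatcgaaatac
grp: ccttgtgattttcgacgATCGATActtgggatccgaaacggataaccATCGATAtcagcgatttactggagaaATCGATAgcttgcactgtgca
mad2: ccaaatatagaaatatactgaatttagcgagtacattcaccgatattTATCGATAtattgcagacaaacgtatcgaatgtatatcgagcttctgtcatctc

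Signals are values of the authors' peak caller on a scale that is not stated, so they are compared within a list and through ranks, with rank 1 the strongest peak. The pooled thresholded list held 2067 peaks with signals from 6.02 to 511 and a median of 77.6, replicate 1's own list 1681 peaks (median 52.0) and replicate 2's own list 1347 (median 44.7). The number of reads behind each list is unknown. In the pooled list the best peaks of the 6 bound genes had a median signal of 115, beside 91.1 for those of all 2418 bound protein-coding genes. All 6 lay above the median of that pooled list. In replicate 1's own list the lowest of them was grp at percentile 50.4. In replicate 2's own list Bub3 and grp lay below the median (percentiles 48.4 and 49.1), polo was at percentile 50.2 and Bub1 was absent. The irreproducible discovery rate (IDR) attached to each peak of the longer ranked lists estimates how large a share of peaks ranked as consistently would fail to recur between rankings. Each thresholded peak had an IDR of 0.01 or less. The deposited text does not state the rankings behind each IDR. It is given as −log10 IDR, on which 2 stands for an IDR of 0.01 and 5, the value at aurA, is the cap of the scale.

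**Figure D1:**
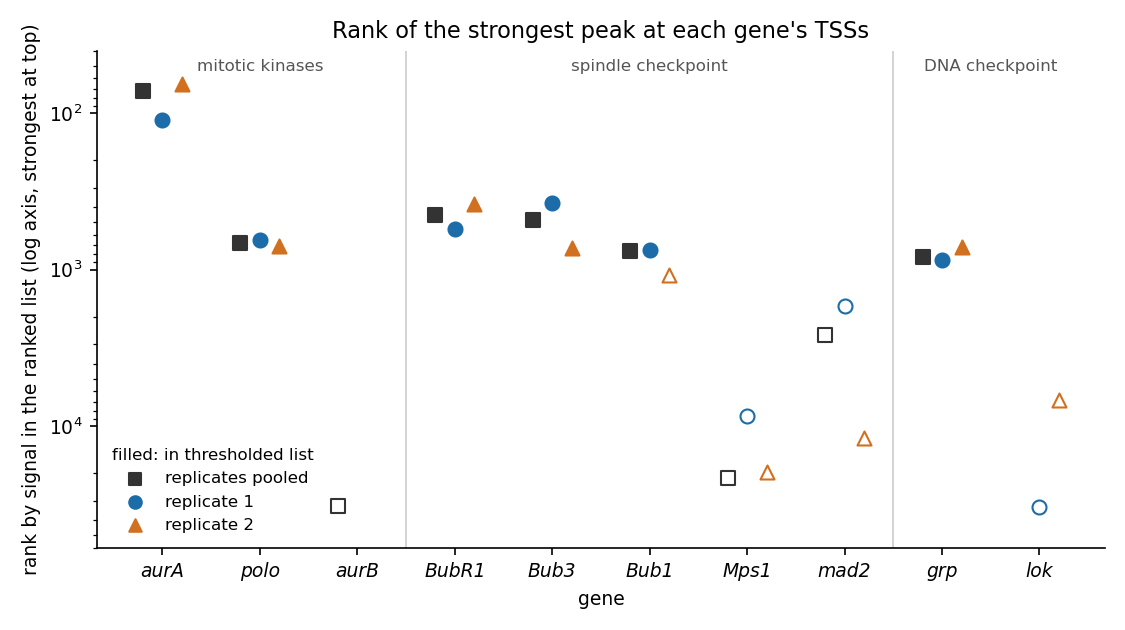
Rank by signal of the strongest peak within 500 bp of a TSS of each gene in the ranked lists of the pooled replicates, replicate 1 and replicate 2, on a log axis with the strongest at the top, with filled marks where the peak is also in the thresholded list. The aurA points sit at 72, 110 and 65, the filled points of the other genes at 376 to 868, and Bub1 has an open mark at 1076 for replicate 2.

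The strongest of the 10 was aurA (FBgn0000147, 3R, 11963124 to 11964826, plus strand), which encodes Aurora A, a kinase of centrosomes and spindle poles. Its peak (11962790 to 11963224) had a signal of 239 and rank 67 in the pooled list, with the summit in intergenic DNA 111 bp upstream of the TSS. Replicate 1 gave a signal of 127 at rank 103, and replicate 2 a signal of 109 at rank 59. So aurA stood near the top of each list, at the 96.8th percentile of the pooled one, and the summits of the replicates were 18 bp apart. The −log10 IDR was at its cap of 5 in both pooled ranked lists. The peak is shared: the TSS of CG3281 lies 319 bp away on the opposite strand, and the summit was 208 bp from it, farther than from aurA.

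The peak at polo (FBgn0003124, 3L, 20309654 to 20313466, plus strand), the gene that gave Polo-like kinases their name, was shorter and of middle rank. It spanned 159 bp (20309879 to 20310037) with a signal of 105 at rank 657. Replicate 1 gave 62.1 at rank 629 and replicate 2 gave 44.8 at rank 672, with summits 34 bp apart. The polo annotation has 2 TSSs, and the summit lay 73 bp upstream of the second, inside the 5′ UTR of the transcript that begins at the first. The second TSS is thus the nearer one to the peak, and no other gene has a TSS within 500 bp of the summit.

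At aurB (FBgn0024227, 2L, 10856797 to 10858094, minus strand), which encodes the Aurora kinase of the chromosomal passenger complex, no pooled thresholded summit lay closer than 90085 bp to the TSS. The nearest was that at Ubc2. One of the 2 pooled ranked lists, which reach far below the threshold, held a peak in its coding exon 191 bp downstream of the TSS with a signal of 10.2 at rank 32332 of 47947. The other pooled ranked list and both replicates' ranked lists held none within 500 bp. The gene of Aurora A thus had the strongest peak of the 10, and that of Aurora B had none past the threshold.

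Among the spindle checkpoint genes BubR1 (FBgn0263855, 2R, 5969099 to 5974385, minus strand) had the strongest peak. It encodes a kinase-related protein that binds and restrains the activator of the anaphase-promoting complex. The pooled peak (5974346 to 5974528) had a signal of 130.03 at rank 429, replicate 1 gave 67.7 at rank 532 and replicate 2 gave 60.01 at rank 367. The summit lay 44 bp upstream of the TSS in intergenic DNA that no other TSS shares, and the replicates' summits were 30 bp apart. BubR1 stood between percentiles 68.4 and 79.3 of these 3 lists and is, with polo, one of the bound genes whose peak has no other TSS within 500 bp.

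Bub3 (FBgn0025457, 3R, 29674007 to 29675421, minus strand) encodes the WD-repeat partner through which BubR1 and Bub1 reach kinetochores. Its pooled peak (29675455 to 29675583) had a signal of 125.02 at rank 463 and a summit 50 bp upstream of the TSS. Replicate 1 placed it at rank 362 with a signal of 81.5, and replicate 2 at rank 696 with 43.6. The replicates differed more here than at aurA or BubR1: the peak was at the 78.5th percentile of replicate 1's list and the 48.4th of replicate 2's, with summits 93 bp apart. Cap-D2, a condensin subunit gene, starts 230 bp away on the opposite strand, with its TSS 180 bp from the pooled summit. In replicate 2 the summit lay nearer to Cap-D2 (102 bp) than to Bub3 (128 bp).

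Bub1 (FBgn0031696, 2L, 5278865 to 5283283, plus strand) encodes the kinase that helps to recruit checkpoint proteins to kinetochores, and its peak was the least steady of the 6. The pooled peak (5278502 to 5278789) had a signal of 97.7 at rank 742, and replicate 1 a signal of 57.3 at rank 726. Replicate 2's thresholded list held no summit closer than 7500 bp to a Bub1 TSS, and the strongest peak nearby in its ranked list had a signal of 33.3 at rank 1076 with an IDR of 0.577. That weaker summit lay 437 bp from the one of replicate 1, just before the second Bub1 TSS. The pooled summit was 228 bp upstream of the first Bub1 TSS but 89 bp from the TSS of Nin, which starts 317 bp away on the opposite strand, and in replicate 1 these distances were 285 bp and 32 bp. By position the peak is nearer to Nin than to Bub1 in each thresholded list that holds it.

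Mps1 (FBgn0000063, 3R, 17671271 to 17673828, plus strand), a kinase gene that acts at the head of the spindle checkpoint, and mad2 (FBgn0035640, 3L, 5812135 to 5813093, minus strand), whose product binds the activator of the anaphase-promoting complex, were not bound. The best peak at mad2 was the strongest among the unbound genes, with a signal of 32.4 at rank 2632 of 47947 in the pooled ranked list, with its summit 133 bp upstream. Its IDR was 0.0347 in that list and 0.868 in the other pooled ranked list. In replicate 1 it had a signal of 29.1 at rank 1700 (IDR 0.0495), while in replicate 2 the best peak near the TSS was at rank 11870 (IDR 0.782). That replicate 2 summit lay 142 bp downstream of the TSS in a coding exon, 249 bp from the summit of replicate 1. At 111 bp upstream of the TSS replicate 2 held a peak with a signal of 4.83 at rank 39465 (IDR 0.939). The upstream mad2 peak was thus of fair height in replicate 1 and low in replicate 2. No peak near the mad2 TSS reached an IDR of 0.01 in either replicate. At Mps1 the pooled ranked peak had a signal of 13.4 at rank 21342 (IDR 0.857), and the replicates' best summits were 607 bp apart at ranks 8642 and 19717.

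Of the DNA checkpoint kinases grp (FBgn0261278, 2L, 16680054 to 16699926, plus strand) was bound and lok was not. grp encodes Chk1, which lengthens the last syncytial nuclear cycles of the fly embryo. Its pooled peak (16679910 to 16680011) had a signal of 92.9 at rank 807, replicate 1 gave 52.1 at rank 835 and replicate 2 gave 44.1 at rank 686. The summits of the replicates were 10 bp apart, the closest of the 5 genes with a peak in both replicates' lists. The summit lay 44 bp upstream of the first of 3 grp TSSs, which is at the same base and strand as the TSS of squ, so the promoter cannot be assigned to one of them. The second grp TSS had ranked peaks at ranks 9842 and 44374 alone, and the third had none within 500 bp.

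lok (FBgn0019686, 2L, 20061422 to 20064381, plus strand) encodes Chk2, a kinase that responds to DNA breaks. It starts 52 bp from barr, a condensin subunit gene on the opposite strand. The pooled ranked list behind the thresholded one held no summit within 500 bp of its TSSs, and the other held one at rank 14245 with an IDR of 0.932. In the replicates the best ranked peaks stood at rank 32883 (IDR 0.917) and at rank 6867 (IDR 0.441), 528 bp apart. The nearest thresholded summit was 4214 bp away, at vls.

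**Figure D2:**
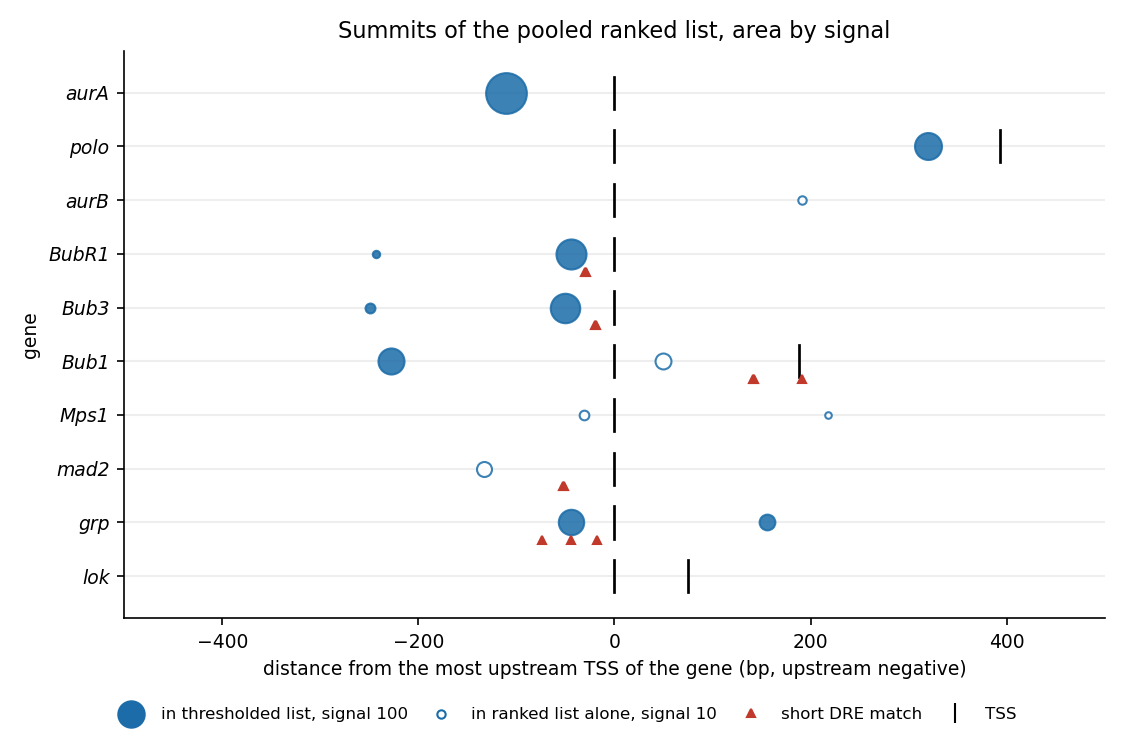
Summits of the pooled ranked list within 500 bp of the most upstream TSS of each gene, upstream to the left, with the area of each circle set by signal, filled circles for peaks that are also in the thresholded list, vertical strokes for TSSs and triangles for TATCGAT matches between 250 bp before and 50 bp after a TSS. The 4 genes that were not bound show open circles or none, the polo summit sits just before its second TSS, and peaks at the later grp TSSs lie outside the window.

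In the ranked lists, which hold 40775 to 47947 peaks each and where most genes have one, 9 of the 10 genes had a peak near a TSS. The background was then 60.9% and 61.2% in the pooled ranked lists and 58.1% and 58.1% in those of replicates 1 and 2. The missing gene was lok in the pooled ranked list behind the thresholded one and aurB in the other 3. In the ranked lists the 10 genes therefore differ by height and IDR more than by presence. That the bound genes pass an IDR of 0.01 follows from the calls, since each thresholded peak had an IDR of 0.01 or less. The IDR is thus no separate support for the calls. In the first pooled ranked list −log10 IDR was 5 at aurA, 4.54 at BubR1, 4.33 at Bub3, 4.01 at polo, 3.63 at grp and 3.61 at Bub1. It was 1.46 at mad2 and below that at Mps1 and aurB, while lok had no peak there.

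**Figure D3:**
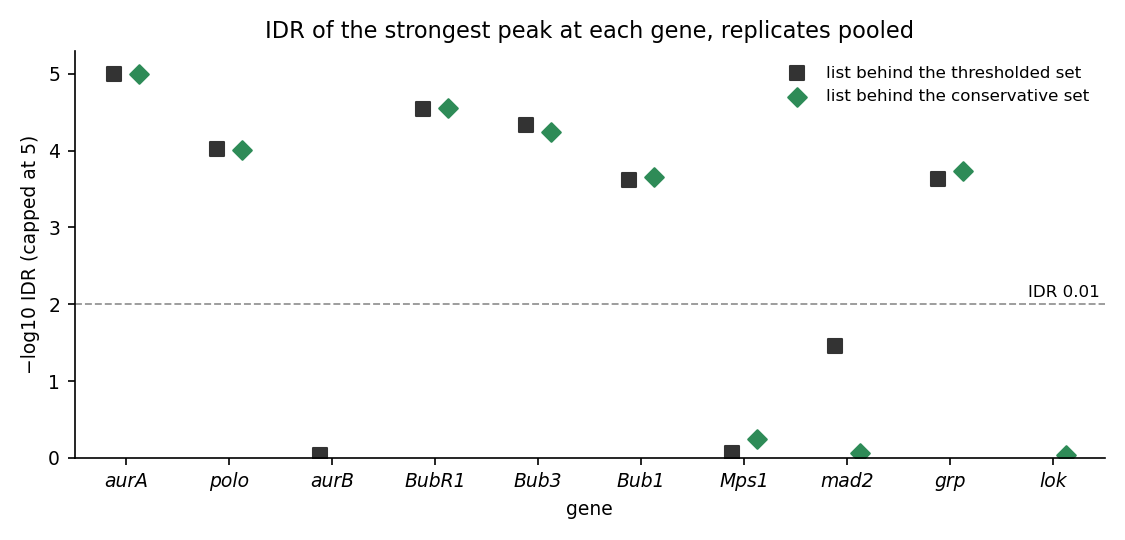
−log10 IDR of the strongest peak of each gene in the pooled ranked lists behind the thresholded and the conservative lists, with the dashed line at an IDR of 0.01. The 6 bound genes lie above the line in both lists, and the other 4 lie below it or have no point. The bound genes do so by definition, since the thresholded and conservative lists hold only peaks with an IDR of 0.01 or less.

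BubR1, Bub3 and grp each carried a second thresholded peak that overlapped the first. At BubR1 it was centred 243 bp upstream with a signal of 7.77 at rank 2038, and neither replicate's lists held it. At Bub3 it was centred 19 bp into Cap-D2 with a signal of 14.1 at rank 1948, and replicate 1's list held a counterpart with 21.9. At grp it was centred 156 bp downstream of the TSS in the 5′ UTR, with a signal of 35.8 at rank 1819. Neither replicate's own thresholded list held the second grp peak. A counterpart in replicate 1's ranked list had an IDR of 0.842, and replicate 2's ranked list held none there. In the first pooled ranked list the second peaks had a −log10 IDR of 4.54 at BubR1, 4.32 at Bub3 and 3.12 at grp. At BubR1 and Bub3 these values were close to those of the first peaks (4.54 and 4.33), so the IDR did not follow the signal in that list. In the other pooled ranked list this was so at BubR1 (4.55 for both peaks). At Bub3 the second peak had 2.30 there, against 4.24 for the first. In the whole pooled list 252 peaks (12.2%) overlapped a stronger one, with a median signal of 14.8 against 86.1 for the others. The second summits are thus low beside the first ones at the same promoters, and none of the calls above rests on them.

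Sequence motifs were searched on both strands within 100 bp of the best summit. A match describes the letters there and does not show that a factor binds. TATCGATA contains TATCGAT, and both contain CGATA, so these counts overlap. CGATA was present at all 6 bound genes, against 81.3% of 2066 summits and 37.1% of protein-coding TSS windows of the same length. Matches of CGATA that do not overlap each other numbered at least 2 at 5 of the 6 (57.4% of summits, 14.3% of TSS windows). The exception was aurA, whose 1 match in that window lay 81 bp from the summit, while the next CGATA and TATCG in its printed sequence lie closer to the TSS, at or beyond the edge of the window.

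The longer element was less frequent. TATCGAT was found at BubR1, Bub3 and grp (54.6% of summits, 12.7% of TSS windows), and the full TATCGATA at BubR1 and Bub3 (32.0% and 6.45%). These matches were close to the summit, 14.5 bp away at BubR1 and 30.5 bp at Bub3 by their centres. At grp there were 3 copies of TATCGAT in the printed stretch, centred 0, 26 and 30 bp from the summit. At polo the nearer of 2 CGATA matches lay 8 bp from the summit, and at Bub1 the matches lay 27 to 60 bp away. The strongest peak, that of aurA, was thus one of the 3 without TATCGAT.

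Of the other motifs, the core of promoter motif 7 (CAGCNCTA, CAGCNCTG, CATCNCTA or CATCNCTG) was present at BubR1 and grp (33.8% of summits), and TATAAA at Bub1 and Bub3 (29.4%). The M1BP site (3.78% of summits), CACGTG (3.44%), GAGAG (15.5%) and CAGGTAG (0.774%) were at none of the 6. The base composition of the 201 bp around the summit was lowest at aurA: its GC content was 26.9%, at percentile 4.21 of all summits, while the other 5 ranged from 32.8% to 40.8% around a median over all summits of 37.8%.

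Counted from the TSS and not from the summit, the DRE was also present at genes that were not bound. Between 250 bp before and 50 bp after a TSS, TATCGATA occurred at 4 of the 10 genes, which are BubR1, Bub3, Bub1 and mad2. In BubR1 it lay 33 to 26 bp and in Bub3 23 to 16 bp before the TSS. In mad2 it lay 55 to 48 bp before the TSS, as printed above, although mad2 passed no threshold. In Bub1 it lay 50 to 43 bp before the second TSS, within the 5′ UTR of the longer transcript and away from the pooled summit, which is upstream of the first TSS. The weak replicate 2 summit at Bub1 lies in this second region, 36 bp before that TSS. Both pooled ranked lists also held a second Bub1 peak (5278712 to 5279115) that spans the match, with a signal of 36.45. The summit of that pooled peak lay 49 bp downstream of the first TSS. Its IDR was 0.834 in the first pooled ranked list and 0.117 in the other.

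The surroundings of that Bub1 match (chr2L:5278992-5279021, plus strand, with TATCGATA in capitals) are shown because the peak of replicate 2 lies there.
Bub1 second TSS: ttctatcgcacTATCGATAaccttgtgcat

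With the shorter TATCGAT the count was 5 of 10, grp being the addition, and no match was found at aurA, polo, aurB, Mps1 or lok. Over all protein-coding genes TATCGATA was present at 10.2%, and at 37.6% of bound genes against 4.42% of those not bound. Of all genes with TATCGATA 64.1% were bound, and of the 4 genes here 3 were. So mad2 is among the genes with a DRE and no thresholded peak, and aurA and polo are among those with a thresholded peak and no DRE match in this window.

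Several of the 10 genes have a divergent promoter, as do 3815 of all 13945 protein-coding genes. Of the 10 genes 6 have a protein-coding neighbour that starts within 500 bp upstream on the opposite strand: aurA with CG3281, Bub3 with Cap-D2, Bub1 with Nin, Mps1 with CG7523 (376 bp), aurB with Stam (442 bp) and lok with barr (52 bp). Of these 6 genes 3 were bound, and of the remaining 4 genes also 3. Over all protein-coding genes 37.1% of 3815 such divergent genes and 9.88% of 10130 others were bound. Since one summit lies within 500 bp of both TSSs at aurA, Bub3 and Bub1, the lists alone cannot say which gene of the pair the binding belongs to.

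A wider list of 83 genes of mitosis and its checkpoints, without the 10, was compared with them by role. In the pooled thresholded list 26 of the 83 (31.3%) were bound, against 17.3% of all genes. Replicate 1's own list held 22 (26.5%, against 14.9% of all genes) and that of replicate 2 held 16 (19.3%, against 12.2%). The best pooled peaks of the 26 had a median signal of 85.6, against 115 for the 6 bound genes above. This list too was drawn up with earlier results known.

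**Figure D4:**
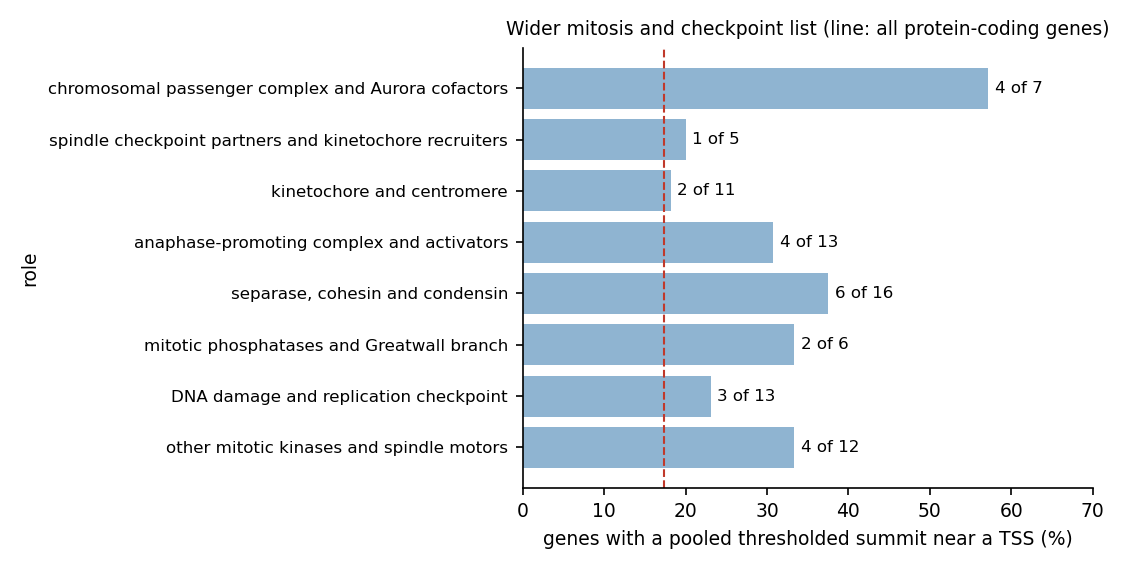
Bars give the percent of genes of the wider list, by role, with a pooled thresholded summit within 500 bp of a TSS, with the number bound of the number listed beside each bar and the dashed line at the 17.3% of all protein-coding genes. The bars run from 2 of 11 kinetochore and centromere genes, near the line, to 4 of 7 chromosomal passenger complex and Aurora cofactor genes.

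Closest to the Aurora kinases in function are the chromosomal passenger complex and Aurora cofactors, of which 4 of 7 were bound (57.1%, against 17.3% of all genes). Incenp, the scaffold that activates Aurora B, had a signal of 85.1 in a peak shared with Br140, whose TSS is the nearer one. That peak was absent from replicate 2's own list. Det, a further subunit of that complex, had 89.5 and shares its peak with m-cup, and mei-38, a spindle gene, had 62.1 and shares it with Rab27. Both were absent from replicate 1's own list. The histone kinase gene ball had 116 in a peak shared with His2Av and was in both replicates' lists. The remaining genes of this role, borr, bora and Haspin, were not bound. So Incenp and Det, partners of Aurora B, had thresholded peaks where aurB itself had none. These lay at promoters shared with other genes, and each was missing from the list of 1 replicate.

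Of 5 partners of the spindle checkpoint proteins 1 was bound, Spindly, the adaptor that brings dynein to kinetochores, with a signal of 61.7 and with no peak in replicate 1's own list. A TSS of IFT57 also lies within 500 bp of the Spindly summit. Mad1, rod, Zw10 and Zwilch were not bound, and Zw10 appeared in the conservative list. Kinetochore and centromere genes were bound at 2 of 11, Nnf1a with 131 and Spc25 with 121, at promoters shared with HnRNP-K and grsm. In each case the TSS of the other gene is the nearer one to the summit. Nnf1a was absent from replicate 2's own list. Ndc80, Nuf2, Spc105R and Mis12, which bind microtubules or link them to the centromere, were not bound. Both shares, 20% of the partners and 18.2% of the kinetochore genes, are near the 17.3% of all genes.

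The anaphase-promoting complex, on which the spindle checkpoint acts, had 4 of 13 genes bound (30.8%, against 17.3% of all genes). They were lmgA with 138, shtd with 86.2, mr with 63.8 and Cdc27 with 62.0. lmgB has a TSS at the same distance from the summit as lmgA, and shtd shares its peak with CG6294 and CG6299, whose TSSs are nearer to the summit. mr and Cdc27 were absent from the conservative list and from replicate 2's own list. The activator genes fzy, fzr and cort were not bound.

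Separase, cohesin and condensin genes were bound at 6 of 16 (37.5%, against 17.3% of all genes). SMC1, a cohesin subunit gene, had the highest signal of the wider list, 257 at rank 49, and was followed within this role by Cap-D2 with 125 (the peak shared with Bub3), wapl with 124, SMC3 with 117, Sse with 109 and pim, the securin gene, with 41.8. The peak at pim was in neither replicate's own list, whereas those of the other 5 were in both. The pim peak is shared with Cand1, and the SMC3 peak with Ubc7, whose TSS is nearer to the summit than that of SMC3. thr, vtd, SA1 and Nipped-B were not bound.

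Of the mitotic phosphatases and the Greatwall branch that holds them back, endos (68.0) and gwl (35.7) were bound. That is 2 of 6 (33.3%, against 17.3% of all genes). The endos peak is shared with CG6650, whose TSS is the nearer one, and the gwl peak with PGS1. The gwl peak was in neither replicate's own list and not in the conservative list. mts, tws, Pp1-87B and flw were not bound in the pooled list, and Pp1-87B appeared in replicate 1's own list. Of the partners of grp and lok in the DNA damage and replication checkpoint 3 of 13 were bound (23.1%, against 17.3% of all genes). They were mre11 with 68.9, mus304 (the partner of the ATR kinase) with 53.1 and p53 with 36.5. Of these mre11 was in both replicates' own lists, p53 in that of replicate 1 and mus304 in neither. Replicate 1's own list thus held 2 of the 13 (14.9% of all genes) and that of replicate 2 held 1 (12.2% of all genes). The mus304 peak is shared with Polr3D, whose TSS is the nearer one. The upstream kinase genes mei-41 and tefu and the genes nbs and rad50 were not bound. Each of these signals was below that of grp.

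Among other mitotic kinases and spindle motors 4 of 12 were bound (33.3%, against 17.3% of all genes). Klp67A, a kinesin gene, had 211 at rank 111 in a peak shared with CG4452, asp had 97.0, ncd had 75.0 and tum had 70.2. The ncd peak is shared with ca and that of tum with Uba3. ncd and tum were absent from replicate 2's own list. SAK, Nek2, Klp61F and Klp10A were not bound in the pooled thresholded list, and SAK appeared in the conservative list. Of the kinase genes in these lists aurA thus had the highest signal.

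TATCGAT was also counted in the wider list. It was present between 250 bp before and 50 bp after a TSS in 39 of the 83 genes (47.0%), against 20.2% of all protein-coding genes. Among the 26 bound genes 21 (80.8%) had it, beside 65.2% of all bound protein-coding genes. Among the 57 not bound 18 (31.6%) had it, beside 10.8% of all those not bound. The full TATCGATA was in 9 of the 26 and in 6 of the 57. In the 10 genes the same counts for TATCGAT were 4 of the 6 bound (66.7%), near the share of all bound genes, and 1 of the 4 not bound.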

How the data were processed

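ChIP-seq peak lists of 2 biological replicates, which the labels give as separate biological samples, were analysed. Per the labels, DNA was sheared by sonication to 200 to 800 bp and peaks were placed on dm6. The aligner and peak caller were not given in the sources used here. A deposited peak has a signal from the authors' caller, whose scale is not stated, and a score that the authors derived from the IDR and capped at 1000. The deposited ranked lists also give −log10 of the IDR. Another 32 columns of per-replicate values in the ranked lists were not used, because nothing ties them to a sample.

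Genes and TSSs came from Ensembl release 115 (BDGP 6.54), with transposable elements left out, which gave 18277 genes and 24111 TSSs. Summits were joined to TSSs within 500 bp with Python 3.11.15, pandas 2.3.3 and numpy 2.4.6, and figures drawn with matplotlib 3.10.9. Ranks were set by signal within each list, and the best peak of a gene is the one of lowest rank. Coordinates count from 1, and promoter positions count from the TSS as 0. Sequences and motifs were read from the NCBI copy of Release 6. The script was tested on simulated data.

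The 10 genes, the wider list and the motifs were chosen with earlier results of these data known. The text names all 10 genes, each gene that shares a best peak with them, each bound gene of the wider list and up to 4 unbound ones per role. Of the listed symbols 3 were matched through a synonym. With 1 group there is no contrast, so no p-value was computed. Alternatives were other TSS windows, lists, IDR thresholds and gene assignments, each replicate left out, and other motif windows. Depth is unknown from these files, so no interval on a signal is given.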

Additional observations from a re-analysis of the deposited data

How the results depend on the processing

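Of the 10 genes 6 were bound in the pooled list, and 5 to 9 over the alternatives. The count was 5 with a TSS window of 200 bp, with a peak given to the nearest TSS alone, without replicate 1, or with peaks in both replicates' lists, and Bub1 was the gene lost each time. It was 9 with all pooled ranked peaks, which added aurB, Mps1 and mad2. It stayed at 6 with a window of 1000 bp, the conservative list, an IDR of 0.001 or without replicate 2. The wider list, 26 of 83 in the pooled list, gave 17 at an IDR of 0.001, 73 with all pooled ranked peaks, 12 with peaks in both replicates' lists and 16 to 22 with a replicate left out (16 without replicate 1). The share of all protein-coding genes, 17.3%, was 60.9% with all pooled ranked peaks and 10.6% with peaks in both replicates' lists. It was 12% at an IDR of 0.001, 14.9% without replicate 2 and 12.2% without replicate 1. With TSS windows of 200 and 1000 bp it was 15% and 18.9%, with the nearest TSS alone 12.5% and with the conservative list 16.8%. The looser and stricter lists keep more and fewer peaks by construction, and any other cause was not tested. For the bound genes with a peak in both replicates' lists, the signal percentile moved by less than 1 SD between the replicates in 8 of 15 comparisons and by more in 7. Bub1 has no such SD, and its 2 comparisons are not counted. Leaving out a replicate leaves the own list of the other, whose percentile is one of the 2 values that set the SD. Those comparisons are therefore not separate from the SD. TATCGATA within 50, 100 or 200 bp of the summit was found at 2 genes in each case. With 2 replicates of unknown depth, a gene without a peak was not detected here, which does not show that it is free of the protein.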
